A study of Xenopus laevis with 42 samples.

Results

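The messages of the Wnt pathway's ligands, receptors, secreted antagonists and feedback genes were followed in the descendants of a single embryonic cell of the frog Xenopus laevis. The rows were taken by name from the deposited tables: genes called wnt, fzd, sfrp or dkk with a number, and frzb, lrp5, lrp6, wif1, sp5 and axin2, where a final L or S names which of the parental subgenomes, long or short, of this allotetraploid frog the copy lies on. Of 44962 rows in all, 84 carried such a name, and the 61 that reached 1 TPM (a transcript level scaled for gene length and for the column's total) in at least 1 of 14 columns were the members. They comprise 21 ligand rows, 20 frizzled receptor rows, 3 co-receptor rows, 13 secreted antagonist rows and 4 feedback gene rows, of 35 gene symbols. The row just inside the limit was wnt7a.L, with a highest level of 1.01 TPM, and the row just outside was dkk3.S, with a highest level of 0.999 TPM. Of the members, 48 reached the limit in both tissues, 11 in progeny columns only and 2, wnt7a.L and wnt7b.S, in explant columns only.

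The cell followed is D1, the dorsal animal blastomere of the 8-cell embryo, whose descendants contribute to the neural plate. In 1 tissue, called progeny here, D1 was filled with a fluorescent dye and its labelled descendants were dissected from the intact embryo. In the other, called explant, D1 was cut away and its descendants grew apart from the embryo. Each tissue was sampled at 7 ages with 3 samples a group, 42 samples in 14 groups: 8-cell (stage 4, 2 hours 15 minutes), 16-cell (stage 5, 2 hours 45 minutes), 32-cell (stage 6, 3 hours), blastula (stage 8, 5 hours), gastrula (stage 11, 11 hours), early neurula (stage 14, 16 hours) and mid neurula (stage 17, 18 hours). No mutation, drug or dose is named in the labels, and they do not say how many embryos went into a sample or whether equal frog numbers in the 2 tissues mean the same animal.

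Wnt proteins are secreted lipid-modified signals that bind frizzled receptors together with the co-receptors lrp5 and lrp6. In the beta-catenin branch, binding stabilises beta-catenin, which enters the nucleus with TCF/LEF factors and turns on target genes such as sp5 and axin2, which in turn restrain the signal. In the planar polarity branch, frizzled proteins act with ror2, vangl2 and prickle1 on cell shape and movement. In the frog, maternal Wnt components set up the dorsal side before the embryo's own genes are switched on. Later, Wnt ligands from the mesoderm posteriorise the neural plate, while antagonists from the organizer and anterior tissue, among them frzb, dkk1 and the sfrp proteins, protect the head from them.

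The authors had combined the 3 samples of a group into 1 column, so each gene has 1 value per tissue and stage. There is no replicate spread, no test was possible and no difference has a replicate check. Columns summed to between 995987 and 999092 TPM, and the depth behind them is unknown. Differences are given on the log2(TPM + 1) scale, which understates the change of low rows. A row is called higher or lower, or said to have risen or fallen, when it differed by at least 1 on that scale. Unless TPM alone is named, 2-fold means 2-fold in TPM + 1. A row can thus differ more than 2-fold in TPM and not be called. The counts over all members are set beside the same share over the 26351 rows that reached 1 TPM in a column, against which counts by role and by list at the same stage can be read too. Explants and progeny come from separately scaled tables. Marker genes of other cell types moved with the tissues. The summed level of 12 muscle marker rows was 126, 5188 and 10479 TPM at gastrula, early neurula and mid neurula in progeny and 10.9, 16.7 and 273 TPM in explants, where 2 of the rows were listed at 0 at gastrula. Over 10 epidermal marker rows the sums were 223, 1096 and 2662 TPM in progeny and 379, 8517 and 11138 TPM in explants. Over 11 neural plate marker rows they were 1401, 1538 and 1086 TPM against 1073, 323 and 423 TPM. Already at 8-cell these neural plate sums were 1267 and 1103 TPM, with 8 of the 11 rows under 1 TPM in each tissue. At early neurula 12 of 12 muscle, 11 of 11 neural plate, 9 of 9 organizer and notochord, 6 of 6 neural crest and 8 of 10 endoderm rows were lower in explants. At the same stage 9 of 10 epidermal, 7 of 7 ciliated cell and ionocyte and 6 of 8 blood and ventral mesoderm rows were higher, while 1 of 3 cement gland rows was lower. At gastrula 4 of 12 muscle, 0 of 11 neural plate, 4 of 9 organizer, 0 of 6 neural crest and 10 of 10 endoderm rows were lower, while 5 of 7 ciliated cell and ionocyte, 4 of 10 epidermal and 2 of 8 blood and ventral mesoderm rows were higher and 2 of those 8 lower. By mid neurula 12 of 12 muscle, 9 of 11 neural plate and 6 of 6 neural crest rows were lower in explants. The organizer and notochord count was then 4 of 9 and the endoderm count 1 of 10. Higher at mid neurula were 9 of 10 epidermal, 7 of 7 ciliated cell and ionocyte and 6 of 8 blood and ventral mesoderm rows. In that last list 2 rows were lower, and 0 of 3 cement gland rows were 2-fold apart. These marker values stand beside every result from gastrula on, and their part in the Wnt rows was not tested. In such bulk tissue, fewer cells of a type and less RNA per cell cannot be told apart.

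Of the 61 members, 24 reached 1 TPM in at least 1 of the 8 columns from 8-cell to blastula. The other 37 stayed under it in all 8. The same counts over all rows are not given, so this late appearance cannot be called particular to the Wnt rows. The summed level over all members in progeny was 381 TPM at 8-cell and 376 TPM at blastula, and in explants 285 and 337 TPM. At gastrula it was 1696 TPM in progeny and 933 TPM in explants. At early neurula these sums were 1546 and 633 TPM, and at mid neurula 1353 and 597 TPM. The number of members at 1 TPM or more in progeny went through 19 at blastula, 40 at gastrula and 53 at early neurula to 58 at mid neurula, while in explants it was 18, 32, 36 and 44. Since 11 members reached 1 TPM in progeny columns only and 2 in explant columns only, entry into the set favours a higher count in progeny.

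**Figure D1:**
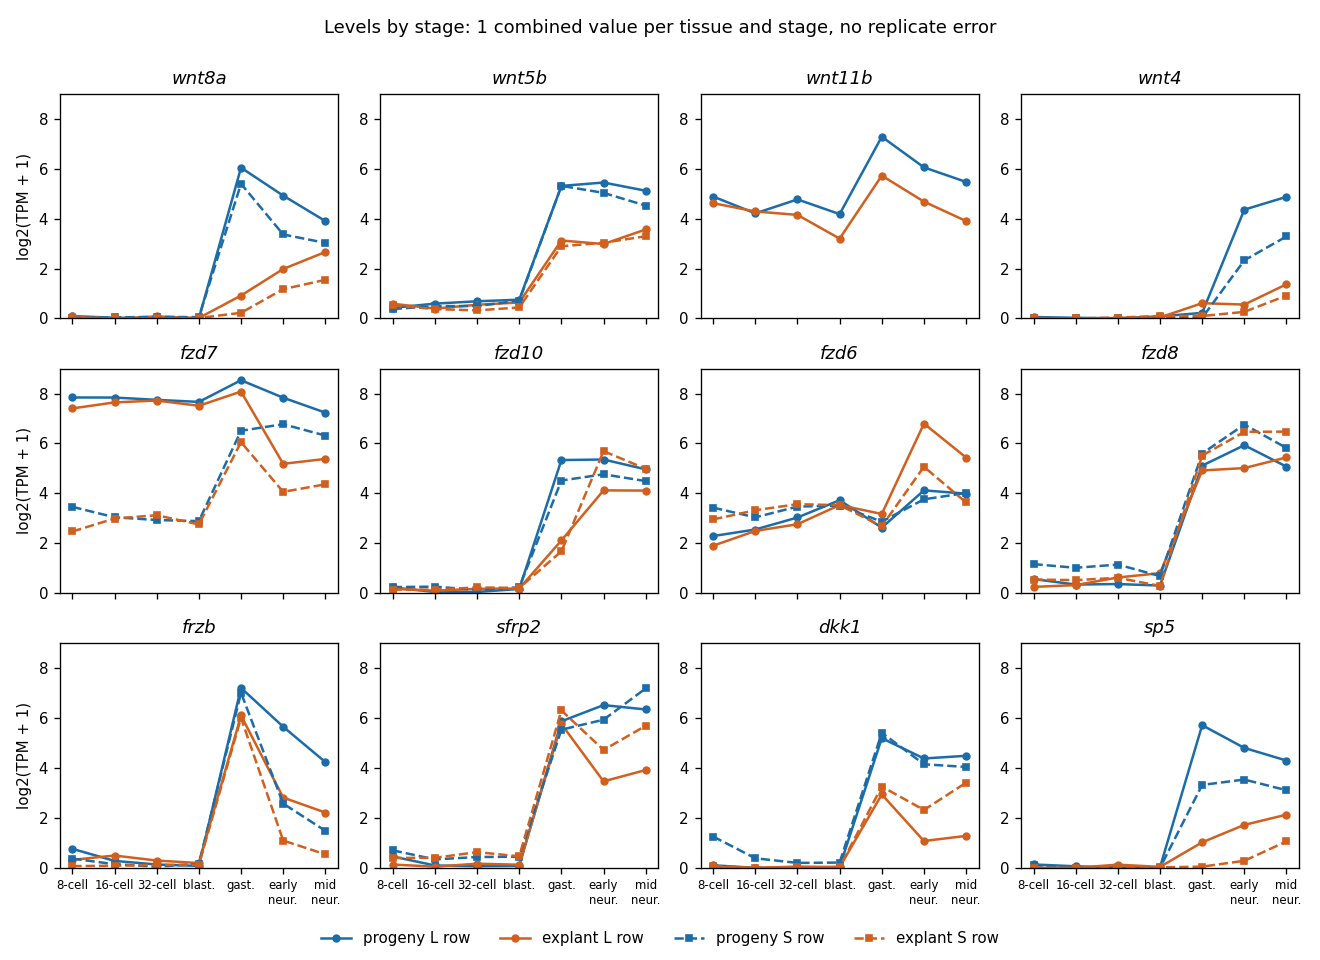
Level of 12 Wnt pathway genes on the log2(TPM + 1) scale (vertical axis) at the 7 stages (horizontal axis), in progeny (blue) and explants (orange), with a solid line for the L row and a dashed line for the S row; each point is the authors' combined value of 3 samples and has no error bar. The tissues run close together through blastula and part at gastrula for wnt8a, wnt5b, fzd10, dkk1 and sp5, and at early neurula for wnt4, fzd7, fzd6 and sfrp2.

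The maternal store was dominated by a single receptor. The row fzd7.L, a frizzled that the frog egg stores and that acts in axis formation and gastrulation, was at 229, 229, 214 and 202 TPM in progeny from 8-cell to blastula and at 169, 199.6, 210.2 and 182 TPM in explants. The L and S rows of fzd7 together made up 77.9 percent of the summed frizzled level in the 8-cell progeny and 77.8 percent in the 8-cell explants. The fzd1 rows came next, with fzd1.L between 16.0 and 33.4 TPM and fzd1.S between 10.4 and 15.6 TPM over these 8 columns. Among co-receptors, which pass the signal on to the beta-catenin branch, lrp6.L lay between 22.2 and 33.7 TPM and lrp6.S between 4.48 and 11.4 TPM.

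Only the ligands wnt11b.L and wnt5a.S reached 1 TPM through blastula. The row wnt11b.L, a ligand whose message is stored in the frog egg, was at 28.6, 17.6, 26.4 and 17.2 TPM in progeny from 8-cell to blastula and at 23.6, 18.6, 16.8 and 8.21 TPM in explants. From 16-cell to blastula its log2 change was -1.09 in explants, a fall, and -0.03 in progeny, under 2-fold. At blastula the explant value was 8.21 against 17.2 TPM, a log2 difference of -0.98, just under the 2-fold limit. The row wnt5a.S, which signals mainly outside the beta-catenin branch, lay between 2.50 and 5.52 TPM in the 8 columns.

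Between the tissues, 1 member was lower in explants at 8-cell and 0 were higher, where 4.16 percent of all rows were lower and 1.90 percent higher (with median-of-ratios scaling, which sets the columns by the median gene, 2.89 and 3.37 percent). That row was dkk1.S, at 1.39 TPM in progeny and 0.0505 TPM in explants, a level near the 1 TPM limit. Among rows that reached 5 TPM in either column 0 members were lower at 8-cell, beside 4.80 percent of all such rows. At 16-cell, 32-cell and blastula 0 of 61 members were 2-fold apart on the log2(TPM + 1) scale. Of all rows 1.09 percent were higher and 1.47 percent lower at 16-cell, 1.32 and 1.64 percent at 32-cell, and 1.43 and 1.46 percent at blastula. The low feedback row axin2.S, not called, was at 1.36 TPM in progeny and 0.651 TPM in explants at 32-cell. At blastula it was at 1.63 and 0.794 TPM. From 8-cell to blastula the summed feedback level in explants was 40.9, 64.8, 64.5 and 50.5 percent of that in progeny. Within each tissue fzd6.L and lrp5.L rose from 16-cell to blastula, from 4.86 to 12.2 and from 2.42 to 6.53 TPM in progeny and from 4.63 to 10.6 and from 2.42 to 6.80 TPM in explants. The 2 rises and the 1 fall, of wnt11b.L in explants, compare with 8.92 percent of rows rising and 0.736 percent falling in progeny and 13.1 and 1.04 percent in explants. Median-of-ratios scaling moved the median of all rows in this interval by -0.16 in progeny and by -0.19 in explants, and under it 0 members rose in either tissue, while the same shares of all rows were 2.11 and 2.29 percent in progeny and 3.47 and 5.51 percent in explants.

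**Figure D2:**
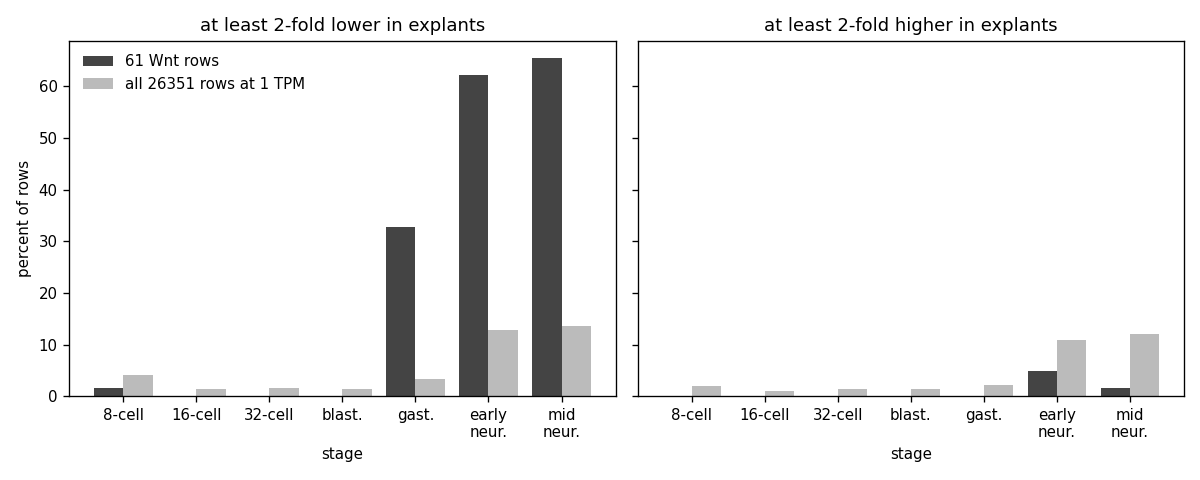
Percent of rows (vertical axis, from 0) at least 2-fold lower (left) and at least 2-fold higher (right) in explants than in progeny on the log2(TPM + 1) scale at each stage (horizontal axis), for the 61 Wnt rows (dark) and all 26351 rows that reached 1 TPM (light); L and S rows of a gene are not independent and there are no replicates. The dark bars for lower rows stand at 32.8 percent at gastrula, 62.3 percent at early neurula and 65.6 percent at mid neurula, against light bars of 3.42, 12.9 and 13.6 percent.

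At gastrula, with the embryo's own genes active, 30 of 61 members had risen since blastula in progeny and 7 had fallen, against 16.1 and 29.5 percent of all rows. In explants 23 had risen and 6 had fallen, against 14.7 and 27.9 percent. With median-of-ratios scaling, which moved the median of all rows in this interval by 0.26 in progeny and 0.22 in explants, the members gave 32 rises and 5 falls in progeny and 24 and 5 in explants, where the shares over all rows were 21.5 and 19.8 percent and 19.6 and 18.3 percent. The falls in both tissues were of lrp6.L, fzd1.L, fzd1.S, fzd5.L, wnt5a.S and sfrp4.L, with fzd6.L in progeny. On this scale only a row at 1 TPM or more at blastula can be called as fallen. The row fzd1.L went from 25.5 to 0.695 TPM in progeny and from 20.3 to 0.716 TPM in explants. The co-receptor row lrp6.L went from 33.7 to 7.76 TPM and from 29.7 to 10.2 TPM.

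Against progeny, 20 of 61 members (32.8 percent) were lower in explants at gastrula and 0 were higher, while 3.42 percent of all rows were lower and 2.2 percent higher. The 20 comprised 8 of 21 ligand rows, 2 of 20 frizzled rows, 0 of 3 co-receptor rows, 6 of 13 antagonist rows and all 4 feedback rows. The median log2 difference was -0.19 over the members and 0.05 over all rows. Of the 48 members that reached 1 TPM in both tissues, 18 were lower, and the share over all such rows is not given.

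The ligands of the gastrula were wnt11b, wnt8a and wnt5b, which made up 44.1, 30.3 and 22.1 percent of the summed ligand level in progeny. The summed ligand level was 352 TPM in progeny and 70.3 TPM in explants, 20.0 percent of it. The most apart was wnt8a, the ligand of the ventral and lateral mesoderm that posteriorises the neural plate. The row wnt8a.L stayed at or under 0.0676 TPM in the 8 columns through blastula and stood at 65.1 TPM in gastrula progeny and 0.890 TPM in gastrula explants, a log2 difference of -5.13. The wnt8a.S row was at 41.3 and 0.170 TPM, a difference of -5.17. Ranked from the lowest over the 26351 rows, the copies took places 10 (L) and 7 (S).

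The non-canonical ligand wnt5b, which acts in gastrulation movements, was at 38.8 and 38.9 TPM (L and S) in gastrula progeny and 7.73 and 6.44 TPM in explants, with log2 differences of -2.19 and -2.42. The row wnt11b.L was at 155 TPM in progeny and 52.0 TPM in explants, a difference of -1.56, and was the most abundant ligand in explants, with 74.0 percent of their ligand level. The separate gene wnt11, also called Wnt11r in the frog, was low, at 3.03 and 5.93 TPM in progeny and 0.160 and 0.111 TPM in explants. The last ligand row lower at this stage was wnt8b.S, a ligand of the developing brain, at 1.41 and 0.0695 TPM.

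Most receptor rows were under 2-fold apart at gastrula. In progeny and explants fzd7.L stood at 370.2 and 270.1 TPM, fzd7.S at 90.2 and 65.4 TPM, and fzd8.S, a frizzled of the anterior neural plate, at 47.4 and 44.7 TPM. Both fzd4 rows, fzd4.L at 31.4 and 32.7 TPM and fzd4.S at 27.5 and 23.1 TPM, were also under 2-fold apart. The exceptions were the rows of fzd10, a frizzled of the dorsal neural tube and neural crest. The row fzd10.L was at 39.4 TPM in progeny and 3.32 TPM in explants and fzd10.S at 21.9 and 2.2 TPM, differences of -3.22 and -2.84.

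The secreted antagonists split into genes that were lower and genes that were not. The organizer antagonist frzb, a soluble relative of the frizzled ligand-binding domain, was the most abundant in progeny. Its rows were at 147 and 129 TPM (L and S) in gastrula progeny and 68.0 and 63.5 TPM in explants, differences of -1.10 and -1.01, just past 2-fold. The row dkk1.L, an antagonist that binds lrp5 and lrp6 and is needed for the head, was at 35.7 and 6.69 TPM, and dkk1.S at 41.7 and 8.58 TPM. The rows of sfrp1, a soluble frizzled relative, were at 27.2 and 9.35 TPM (L and S) in progeny and 2.26 and 2.57 TPM in explants, differences of -3.11 and -1.53. The rows of sfrp2 did not follow this: sfrp2.L was at 57.7 and 53.3 TPM and sfrp2.S at 45.5 and 78.4 TPM, with differences of -0.11 and 0.77. This antagonist, expressed in the neural plate, was under 2-fold apart at gastrula.

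The rows of the feedback genes sp5 and axin2, targets of the beta-catenin branch, were near or under 1 TPM in gastrula explants. Their summed level was 78.4 TPM in progeny and 2.1 TPM in explants, 2.68 percent. The row sp5.L, a zinc finger factor and direct beta-catenin target, was at 51.6 TPM in progeny and 1.03 TPM in explants, a log2 difference of -4.69, and sp5.S at 9.01 and 0.0336 TPM, a difference of -3.28. The row axin2.L, a scaffold of the complex that destroys beta-catenin, was at 15.2 and 0.841 TPM, a difference of -3.14. The copy axin2.S was at 2.59 and 0.196 TPM. The sp5-like rows lie outside the naming rule and were picked after their values were seen. They were at 745 (L) and 566 (S) TPM in gastrula progeny and at 138 and 93.8 TPM in explants.

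**Figure D3:**
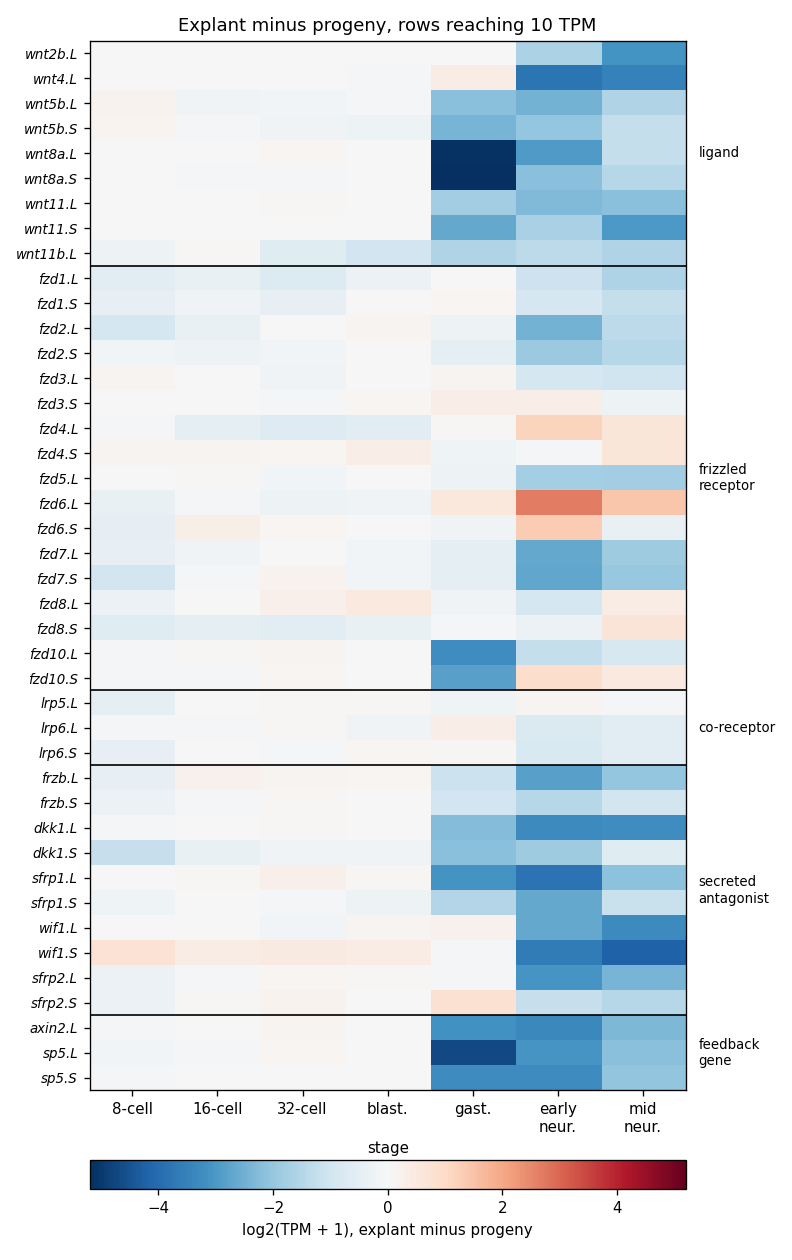
Explant minus progeny difference on the log2(TPM + 1) scale (colour, blue for lower and red for higher in explants) of the 42 Wnt rows that reached 10 TPM (rows, grouped by role) at the 7 stages (columns); each cell comes from 1 combined value per tissue. The left side is pale through blastula; at gastrula wnt8a.L and wnt8a.S stand at -5.13 and -5.17, and at early neurula blue covers most roles while fzd6.L is red at 2.68.

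At early neurula 38 of 61 members (62.3 percent) were lower in explants and 3 were higher, beside 12.9 and 10.9 percent of all rows. At mid neurula 40 (65.6 percent) were lower and 1 was higher, beside 13.6 and 12.0 percent. The median log2 difference over the members was -1.63 and -1.38, and over all rows -0.10 and -0.13. Of the 38 and 40 lower rows 34 were lower at both neurula stages, and 15 were lower at gastrula too. The same overlap over all rows is not given, so it cannot be called particular to the members. The stages lie close together, so the overlap is no replicate check. Among rows that reached 5 TPM in either column, 31 of 43 members were lower at early neurula and 33 of 46 at mid neurula, beside 16.1 and 15.5 percent of all such rows.

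A second set of ligands appeared in neurula progeny. From gastrula to early neurula 11 of 21 ligand rows rose in progeny, where 17.7 percent of all rows did, and 3 rose in explants, where 16.1 percent of all rows did. Of these 21 rows 9 are members only because they reached 1 TPM in progeny, which favours a higher count of rises there. The row wnt4.L, a ligand of the neural tube and kidney, was at 0.168, 19.6 and 28.4 TPM in progeny at gastrula, early neurula and mid neurula and at 0.530, 0.472 and 1.59 TPM in explants. Its log2 differences at the neurula stages were -3.81 and -3.51. The rows of wnt1, a ligand of the border between midbrain and hindbrain and of the dorsal neural tube, were at 7.48 and 6.15 TPM (L and S) in early neurula progeny and 0.00508 and 0.256 TPM in explants. The brain ligand wnt8b was at 5.30 and 7.19 TPM in progeny and 0.122 and 0.0171 TPM in explants. The row wnt2b.L came up last, at 2.41 and then 11.8 TPM in progeny and 0.103 and 0.509 TPM in explants. Lower levels were seen for wnt3a.L, a ligand of the dorsal neural tube and tail bud, at 3.79 TPM in mid neurula progeny and 1.32 TPM in explants, and for wnt10a.L at 4.43 and 0.393 TPM.

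The earlier ligands remained lower as well. The rows wnt5b.L and wnt11b.L were at 42.7 and 65.6 TPM in early neurula progeny and 6.91 and 24.7 TPM in explants. Of the 21 ligand rows 10 reached 1 TPM in both tissues and 9 in progeny columns only. At mid neurula 19 of the 21 were lower in explants, a count that this way of entering the set favours. The other 2, wnt7a.L at 0.0656 and 0.0663 TPM and wnt7b.S at 0.789 TPM in progeny and 2.07 TPM in explants, are the rows that reached 1 TPM in explants only. The summed ligand level in explants was 19.8 percent of that in progeny at early neurula and 23.5 percent at mid neurula.

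The frizzled rows changed in make-up more than in sum. Their summed level in explants was 59.8 percent of that in progeny at early neurula and 65.0 percent at mid neurula. The row fzd7.L was at 370.2, 228 and 149.9 TPM in progeny from gastrula to mid neurula, and at 270.1, 35.4 and 40.7 TPM in explants, where it fell after gastrula. The share of fzd7 in the frizzled level was 40.1 percent in early neurula progeny and 10.2 percent in explants. The rows of fzd2, which rose in progeny, were at 90.9 and 59.0 TPM (L and S) in early neurula progeny and 15.7 and 14.8 TPM in explants, with differences of -2.46 and -1.93. Both fzd3 rows rose from gastrula to early neurula in each tissue, fzd3.L to 26.9 TPM in progeny and 13.7 TPM in explants and fzd3.S to 22.1 and 28.5 TPM. The row fzd5.L, a frizzled of the eye field, was at 11.3 TPM in mid neurula progeny and 2.48 TPM in explants.

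The frizzled fzd6, which acts in planar polarity of the skin in the mouse, went the other way. The row fzd6.L was at 5.17, 16.4 and 14.9 TPM in progeny from gastrula to mid neurula and at 8.03, 110.2 and 42.3 TPM in explants, with differences of 2.68 and 1.45 at the neurula stages. The row fzd6.S was at 12.6 and 32.5 TPM at early neurula, a difference of 1.31, but at 15.2 and 11.4 TPM at mid neurula. In early neurula explants fzd6 had the highest share of the frizzled level, 28.5 percent, against 3.46 percent in progeny. The third higher row was fzd4.L, at 14.9 TPM in progeny and 34.7 TPM in explants. With fzd8, a receptor of the anterior neural plate, the tissues were under 2-fold apart at both neurula stages: at mid neurula fzd8.L stood at 32.6 and 42.4 TPM and fzd8.S at 55.5 and 88.0 TPM. The co-receptors were under 2-fold apart too, with lrp5.L at 10.4 and 9.72 TPM and lrp6.S at 12.5 and 7.90 TPM at mid neurula.

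**Figure D4:**
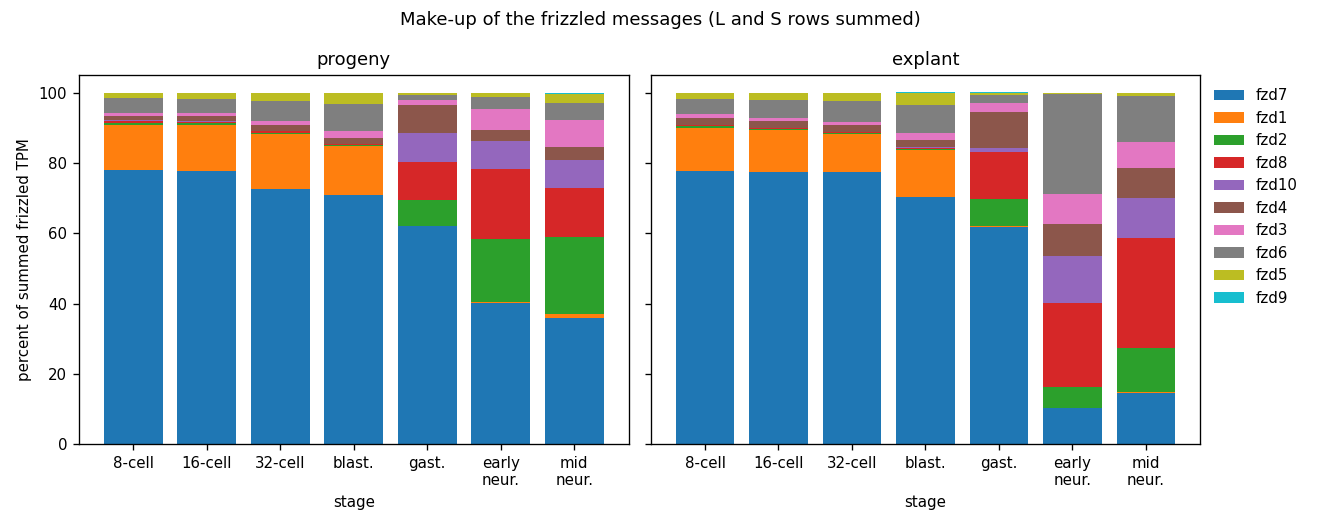
Share of each frizzled gene (colour, L and S rows summed) in the summed frizzled level in percent (vertical axis) at the 7 stages (horizontal axis), in progeny (left) and explants (right); TPM is scaled for length, so the genes can be summed, and the bars have no error. The blue block of fzd7 is 62.0 percent in gastrula progeny and 61.8 percent in gastrula explants, and 40.1 against 10.2 percent at early neurula.

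The summed antagonist level in explants went from 288 TPM at gastrula to 56.2 TPM at early neurula, and the sums in progeny were 497 and 353 TPM. At early neurula 10 of 13 antagonist rows were lower and at mid neurula 8. Both sfrp2 rows, under 2-fold apart at gastrula, were lower from early neurula on. The row sfrp2.L was at 91.0 and 80.5 TPM in progeny and 10.1 and 14.1 TPM in explants, and sfrp2.S at 60.3 and 145 against 25.5 and 50.8 TPM. The inhibitor wif1, a secreted protein that binds Wnt ligands, came up in neurula progeny, where wif1.L was at 19.2 and 40.1 TPM and wif1.S at 18.5 and 37.6 TPM. In explants wif1.L was at 2.23 and 3.12 TPM and wif1.S at 0.571 and 1.09 TPM, and the wif1.S difference at mid neurula, -4.21, was the lowest of any member at that stage. From gastrula to early neurula both frzb rows fell in both tissues, frzb.L from 147 to 49.4 TPM in progeny and from 68.0 to 6.04 TPM in explants. The row frzb.S fell more, from 129 to 4.96 TPM and from 63.5 to 1.13 TPM. The row dkk1.L was at 19.9 TPM in early neurula progeny and 1.11 TPM in explants, a difference of -3.31. The sfrp1 rows were at 56.9 and 14.4 TPM in progeny and 3.09 and 1.42 TPM in explants.

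Some rows that were low in gastrula explants rose there by early neurula, among them wnt8a.L and both fzd10 rows. The row wnt8a.L was at 65.1, 29.4 and 14.0 TPM in progeny from gastrula to mid neurula and at 0.890, 2.95 and 5.34 TPM in explants. Its log2 change from gastrula to early neurula was -1.12 in progeny and 1.07 in explants, the only member to move at least 2-fold in opposite directions over an interval. The tissue difference of wnt8a.L went from -5.13 at gastrula to -2.94 and -1.24. That of sp5.L went from -4.69 to -3.09 and -2.17, with explant levels of 1.03, 2.30 and 3.38 TPM beside 51.6, 27.0 and 18.7 TPM in progeny. The row axin2.L was at 0.841, 1.85 and 3.34 TPM in explants and 15.2, 28.2 and 21.0 TPM in progeny. Its steps in explants were 0.63 and 0.61 on the log2(TPM + 1) scale, too small to be called. In TPM the first of these steps was more than 2-fold. Among members in explants fzd10.S rose the most over this interval, from 2.2 to 50.7 TPM, while progeny had 21.9 and 26.2 TPM. Its tissue difference turned from -2.84 at gastrula to 0.93 at early neurula, which is under 2-fold as deposited and 1.07 with median-of-ratios scaling. From gastrula to early neurula 9 members rose and 9 fell in explants, beside 16.1 and 20.5 percent of all rows. With median-of-ratios scaling, which moved the median of all rows by 0.14, 13 rose and 7 fell, and over all rows 20.7 percent rose and 16.0 percent fell. In progeny 20 rose and 9 fell, beside 17.7 and 15.7 percent.

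From early to mid neurula fewer members moved than from gastrula to early neurula, and so did a smaller share of all rows. The interval, from 16 to 18 hours, was also shorter than that from 11 to 16 hours. In progeny 5 rose and 5 fell, 8.20 percent each, beside 7.77 and 1.48 percent of all rows. The share that rose was thus near that of all rows and the share that fell above it. The 5 falls were of both rows of frzb, both rows of sfrp1 and wnt8a.L, and L and S rows of a gene are not independent. The rises included wif1.L and wnt2b.L, given above, and wnt11.S, from 2.2 to 12.0 TPM, and the falls included frzb.L and sfrp1.L, the latter from 56.9 to 22.8 TPM. In explants 3 rose and 2 fell, beside 7.49 and 1.24 percent, among them dkk1.S, from 3.99 to 9.66 TPM, and both fzd6 rows, which fell. Among rows that reached 5 TPM in either column 1 member rose in explants, beside 8.90 percent of all such rows. With median-of-ratios scaling, which moved the median of all rows by -0.13 in progeny and -0.12 in explants, 4 rose and 7 fell in progeny and 2 rose and 3 fell in explants, while 5.77 and 2.60 percent and 5.82 and 2.21 percent of all rows did.

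The L and S copies of a gene can be compared for 26 symbols with both rows among the members. Reads of such similar copies may be shared, and how the authors divided them is not stated in the labels or headers, so the copies are no replicates of each other. Both copies were lower in explants for 9 symbols at gastrula and for 16 at each of the neurula stages, and for 0 symbols were the copies called in opposite directions. The tissue difference had the same sign in both copies for 20, 23 and 24 of the 26 symbols. The same counts over all L and S pairs are not given, so this likeness of copies cannot be called particular to the Wnt genes. The fzd10 copies were the most apart at early neurula, at -1.24 (L) and 0.93 (S). With fzd10.L at 40.0 and fzd10.S at 26.2 TPM in early neurula progeny, and 16.4 and 50.7 TPM in explants, the higher copy was L in progeny and S in explants. For dkk1 the mid neurula differences were -3.21 (L) and -0.63 (S), with dkk1.L at 21.5 and 1.43 TPM and dkk1.S at 15.5 and 9.66 TPM. Across stages fzd7 changed its balance, since fzd7.L exceeded fzd7.S by 4.38 on the log2 scale in 8-cell progeny and by 0.92 in mid neurula progeny. The lrp6 copies changed over, with an L minus S difference of 1.60 in blastula progeny and -0.88 at gastrula, and of 1.31 and -0.59 in explants.

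**Figure D5:**
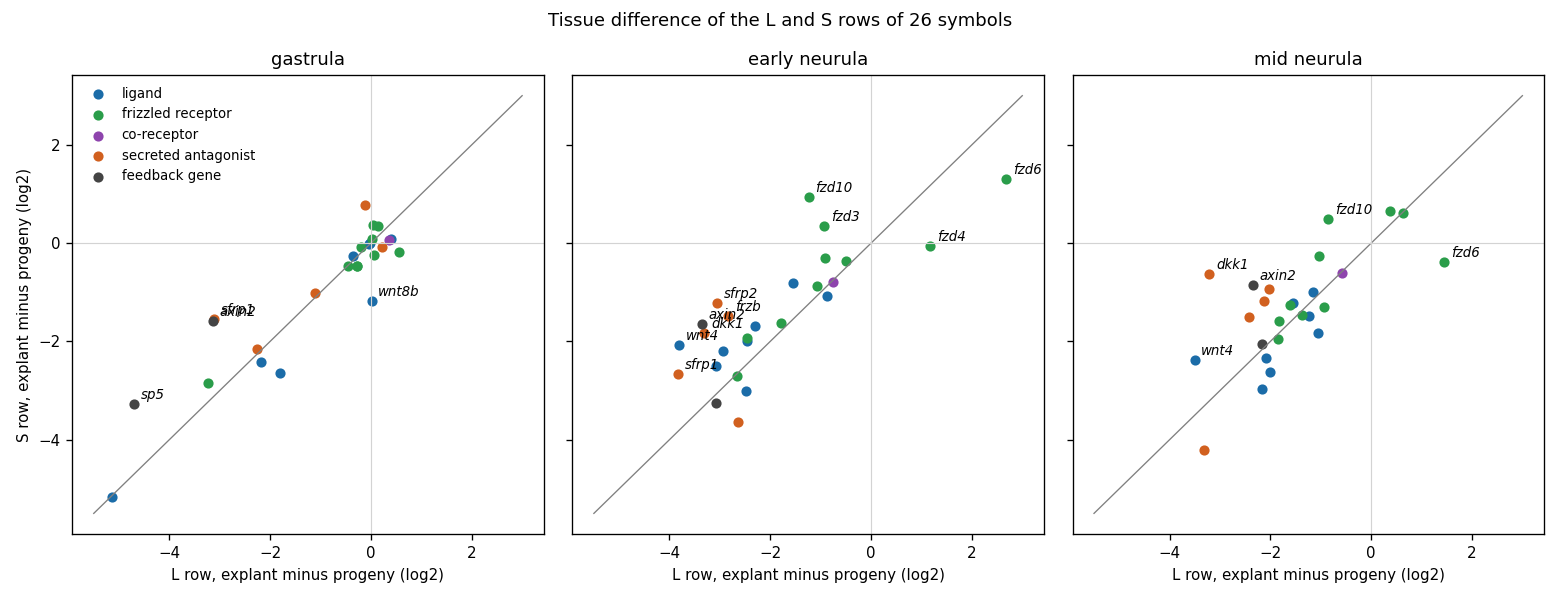
Explant minus progeny difference on the log2(TPM + 1) scale of the L row (horizontal axis) against that of the S row (vertical axis) for 26 symbols at gastrula, early neurula and mid neurula, coloured by role, with the grey line of equal differences; each point rests on combined columns without error. Most points lie to the lower left. At early neurula fzd10 lies furthest off the line, at -1.24 for L and 0.93 for S. Others off it at that stage include sfrp2, at -3.06 and -1.21, and wnt4, at -3.81 and -2.07.

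Other genes of the pathway were read from lists chosen with earlier results of these data known. Genes that act inside the cell in the beta-catenin branch were mostly alike at gastrula: of 50 rows 2 were lower in explants and 0 higher, close to the 3.42 and 2.2 percent of all rows, with a median log2 difference of 0.02. Both lower rows were lef1, the TCF/LEF factor that is itself a Wnt target, with lef1.L at 20.3 and 5.40 TPM. Beta-catenin itself, ctnnb1.S, was at 979 TPM in progeny and 859 TPM in explants, and the repressor-type factor tcf7l1.L at 113 and 119.9 TPM. At early neurula 13 of the 50 rows were lower and 1, dvl3.L, an adaptor below the frizzled receptors, was higher, at 16.2 TPM in progeny and 93.4 TPM in explants. At mid neurula 11 were lower and 1, again dvl3.L, was higher, where 12.9 and 13.6 percent of all rows were lower at the early and mid neurula stages.

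Of 29 rows of Wnt target genes 21 were lower in gastrula explants and 0 higher, with a median of -2.93; many of these are also genes of the posterior mesoderm. The row cdx4.L, a posterior homeobox gene, was at 112 TPM in progeny and 6.88 TPM in explants at gastrula and 97.1 and 30.6 TPM at mid neurula. The row msgn1.L, a factor of the presomitic mesoderm, was at 36.8 and 0.0795 TPM at gastrula and 67.4 and 17.1 TPM at early neurula. The counts for these targets were 23 lower and 0 higher at early neurula, and 19 lower and 1 higher at mid neurula, where 3.42, 12.9 and 13.6 percent of all rows were lower at the 3 stages. In explants 14 of the 29 rose from gastrula to early neurula and 4 fell, beside 16.1 and 20.5 percent of all rows, and in progeny 8 rose and 3 fell, beside 17.7 and 15.7 percent.

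Among 35 rows of Wnt secretion and extracellular regulators 5 were lower in gastrula explants, 19 in early neurula explants and 17 in mid neurula explants, and 0 were higher. Over all rows 3.42, 12.9 and 13.6 percent were lower and 2.2, 10.9 and 12.0 percent higher. The row wls.L, the carrier that takes Wnt proteins to the cell surface, was at 38.9 and 38.3 TPM at gastrula and 53.5 and 15.8 TPM at early neurula. The row shisa2.L, which holds frizzled receptors back inside the cell, was at 59.1 TPM in early neurula progeny and 0.745 TPM in explants, a difference of -5.11. The row frzb2.L, another frizzled-related antagonist, was at 51.5 and 7.09 TPM at early neurula and 23.0 and 16.8 TPM at mid neurula.

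Of 29 rows of the planar polarity branch 4 were lower and 0 higher in gastrula explants, 8 lower and 4 higher in early neurula explants, and 5 lower and 4 higher in mid neurula explants. Over all rows 3.42, 12.9 and 13.6 percent were lower and 2.2, 10.9 and 12.0 percent higher at these stages, so the mid neurula counts and the early neurula count of higher rows were near those of all rows. The lower rows included prickle1.L, at 66.4 TPM in early neurula progeny and 6.36 TPM in explants, and the wnt5 receptor ror2.L, at 70.0 and 9.31 TPM. Among the higher rows were vangl1.L, at 12.4 TPM in progeny and 49.6 TPM in explants, and vangl1.S, at 7.17 and 35.1 TPM, while vangl2.S was at 52.0 and 42.1 TPM.

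The 19 members that stayed under 10 TPM in every column were 12 ligand rows, 3 frizzled rows, 3 antagonist rows and the feedback row axin2.S. They include wnt4.S, wnt3a.S and both rows each of wnt1, wnt5a and wnt8b. The frizzled rows among them were fzd5.S, fzd9.L and fzd9.S, with highest levels of 4.50, 1.19 and 2.02 TPM. The antagonists were dkk3.L, sfrp4.L and sfrp5.S. The row sfrp4.L was a stored message, between 1.08 and 2.99 TPM through blastula, and was at 0.165 TPM in gastrula progeny and 0.171 TPM in gastrula explants. The row wnt5a.S was back at 6.04 TPM in early neurula progeny and 2.36 TPM in explants after 0.865 and 0.554 TPM at gastrula.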

How the data were processed

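RNA of D1 descendants was sequenced in 42 samples. The authors deposited 2 tables of TPM values, 1 per tissue, with 44962 rows and 7 columns each, per the file headers. Each column combines the 3 samples of a group. Not given in the sources used here are the genome build, the annotation and how samples were combined. TopHat, Bowtie2, Cufflinks and Cuffdiff are named, without versions, in the submitters' processing notes. TPM keeps no depth, so the number of reads behind a value is unknown, and with 1 column a group no test, interval or replicate check could be made.

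Groups came from the sample titles; the short descriptions abbreviate the last stage as LN, where the titles and stage give mid neurula. Differences were taken on log2(TPM + 1) with Python 3.11.15, numpy 2.4.6 and pandas 2.3.3 over the 26351 rows that reached 1 TPM in a column, and called at 2-fold. The calculation was tested on simulated data. Member rows that reached 10 TPM (42) were described by name, and 52 of 61 members matched a RefSeq symbol. Alternatives were a pseudocount of 0.1, median-of-ratios scaling over the 23814 rows above 0 in every column (factors 0.789 to 1.444), rows at 5 TPM in either column, and L and S rows summed. The count over the 48 members found in both tissues was added after seeing the data. The members and the lists of pathway genes and cell type markers were chosen with earlier results of these data known. The Wnt target row higher in explants at mid neurula is not named here.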

Additional observations from a re-analysis of the deposited data

Results flagged for a closer look

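The ligand row wnt8a.L moved in opposite directions in the 2 tissues between gastrula and early neurula. In progeny it went from 65.1 to 29.4 TPM, a log2 change of -1.12, and in explants from 0.890 to 2.95 TPM, a log2 change of 1.07. The explant change exceeded the progeny change by 2.19 on the log2 scale. With 1 combined value per tissue and stage this difference was not tested, and 143 of 26351 rows (0.543 percent) moved at least 2-fold in opposite directions over the same interval.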

How the results depend on the processing

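With a pseudocount of 0.1, which gives low rows larger changes, counts of members grew. The 8-cell stage then gave 1 higher and 8 lower in explants, the 16-cell stage 1 and 4, the 32-cell stage 2 and 3 and the blastula 2 and 5, while 2 were higher at gastrula and 2 at mid neurula. In progeny 1 fell from 16-cell to blastula and 16 rose from early to mid neurula. In explants 5 rose and 2 fell from 16-cell to blastula, 21 rose and 16 fell from gastrula to early neurula, and 17 rose from early to mid neurula. The shares over all rows are not given for the pseudocount of 0.1, so these counts cannot be read as particular to the members. Among rows at 5 TPM in either column 0 were lower at 8-cell and 1 rose in explants from early to mid neurula, where fewer rows were counted. With median-of-ratios scaling 0 rose from 16-cell to blastula in progeny and 0 in explants. The scaling factors went from 1.01 to 1.41 over this interval in progeny and from 0.994 to 1.44 in explants. With them the log2 change of lrp5.L went from 1.14 to 0.73 in progeny and from 1.19 to 0.73 in explants. Why the factors rose was not tested. With L and S rows summed before the 1 TPM limit was set, 39 symbols passed it, where the members are of 35. The added symbols were dkk2, wnt9a, wnt9b and wnt10b, so the set is not the members alone. Of the 39, 11 were lower at gastrula, 21 lower and 1 higher at early neurula, and 24 lower and 0 higher at mid neurula. The added wnt10b was among the lower ones at mid neurula, at -1.20. The shares over all summed symbols are not given, and those over single rows are for another unit. No tissue difference of at least 2-fold among the 42 named rows from gastrula on changed sign with the pseudocount of 0.1 or median-of-ratios scaling, but smaller ones could: fzd4.L at gastrula went from 0.05 to -0.04 with median-of-ratios scaling. That scaling also turned the balance of rises and falls from early to mid neurula, from 3 and 2 to 2 and 3 in explants and from 5 and 5 to 4 and 7 in progeny. Single rows crossed the limit. With median-of-ratios scaling fzd10.S at early neurula came to 1.07 and fzd3.L at mid neurula to -0.89. With the pseudocount of 0.1 fzd1.S at early neurula came to -1.83 and frzb.S at mid neurula to -1.77. With that pseudocount wnt4.L at gastrula, under 1 TPM in both tissues, went from 0.39 to 1.23. Of the 48 members found in both tissues, 18, 31 and 30 were lower at gastrula, early neurula and mid neurula. The shares over all rows found in both tissues are not given, so these counts have no like background. No paired analysis was possible because each column combines the 3 samples of a group, and leaving out a replicate could not be run for the same reason. Depth is unknown, so the precision of low values cannot be given.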

Other observations

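Rows of close relatives with other names fell outside the naming rule and were picked after their values were seen. The sp5-like rows were far more abundant than sp5. The row sp5l.L was at 745 TPM in gastrula progeny and 138 TPM in explants, and at 324 and 38.2 TPM at early neurula, log2 differences of -2.43 and -3.05. The row sp5l.S was at 566 and 93.8 TPM at gastrula, a difference of -2.58. The row dkkx.L was at 28.4 and 17.6 TPM at gastrula and at 5.19 and 16.3 TPM at mid neurula. The row sfrpx.S was already present at 8-cell, at 9.66 TPM in progeny and 5.98 TPM in explants. At blastula it was higher, at 22.8 TPM in progeny and 21.3 TPM in explants.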
